A study of Mus musculus with 6 samples.

Results

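The genes of the plasminogen activator system described here are the plasminogen activators Plat and Plau, the urokinase receptor Plaur, the protease inhibitors Serpine2 and Serpinb2, the related serpin Serpinf1, and the plasminogen-binding pair S100a10 and Anxa2. These 8 genes were found by name among the 56884 genes of the mouse table. They were chosen by their place in this system with their levels in all 6 libraries already known, so that their differences between the groups are given as a description, without a test. All 8 had a total of at least 10 counts, the minimum for a gene to enter the fit.

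Plasmin is the protease that dissolves fibrin and, with metalloproteinases, degrades extracellular matrix. It is made from its liver-derived precursor plasminogen by tissue-type plasminogen activator (Plat) or by urokinase (Plau), and the receptor Plaur holds urokinase at the cell surface. Serpins bind and inactivate both activators, and S100a10, carried to the membrane by Anxa2, offers a site at which plasminogen and its activator meet.

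RNA was sequenced from livers of athymic mice (BALB/c (nu/nu), male, 6 weeks old) that had received human hepatocellular carcinoma (HCC) cells of the line QGY-7703 in the liver. After 1 week, AAV8 vectors with either a control siRNA (siControl, 3 libraries) or an siRNA against mouse Aatf (siAATF, 3 libraries) were given through the tail vein, and the mice were followed for 3 more weeks. The labels call the first genotype WT and the second KD. Expression of the siRNA was driven by the TBG promoter, which is active in hepatocytes, and athymic mice lack mature T cells while keeping innate immune cells. Whether each library came from its own mouse is not stated in the labels, so that p-values measure the spread between these libraries.

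The libraries of the 2 groups differed in which species their counts came from. Human genes took between 98.1% and 99.2% of the counts on genes of either species in siControl, but between 0.972% and 2.14% in the libraries labelled siAATF. Mouse genes, the only ones in which the members were counted, had 213022 to 913584 counts in siControl and 11835898 to 42563694 in siAATF. Levels are given as counts per 1e+06 counts (CPM) after TMM normalization, which sets a scaling factor for each library. A count of 0 allows up to 3 counts, or 1.67 to 7.25 CPM in a siControl library and 0.104 to 0.605 CPM in one labelled siAATF. Limits and intervals cover counting error only, as PCR copies do not count independent molecules. Aatf itself had 9.63, 2.42 and 12.8 CPM in siControl replicates 1 to 3, from only 12, 1 and 23 counts. In siAATF replicates 1 to 3 it had 13.3, 22.0 and 18.9 CPM. With TMM the target was thus not lower in the libraries labelled siAATF (log2 fold change 0.93, standard error 0.47, edgeR adjusted p = 0.152). Without TMM factors it had 17.1, 4.69 and 25.2 CPM in siControl against 9.02, 9.21 and 9.72 CPM, and the log2 fold change was -0.92 (edgeR adjusted p = 0.174). Scaled by the counts of both species it was 5.04 (edgeR adjusted p = 3.77e-10). The direction thus depended on the scaling, and every direction below refers to the labels.

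Both activators and their receptor had at most 1.00 CPM in each library labelled siAATF and at least 22.5 CPM in each siControl library. CPM refers to TMM-normalized mouse counts unless another scale is named, and log2 fold changes are those of the edgeR fit, siAATF against siControl. Plat (chromosome 8 of GRCm39, 23247763 to 23272860, plus strand) had 36.9, 50.7 and 78.1 CPM in siControl replicates 1 to 3. In siAATF replicates 1 to 3 it had 0.552, 0.202 and 0.555 CPM, from 16, 1 and 10 counts. The groups were far apart, with means of 55.3 ± 20.9 (SD, n = 3) and 0.436 ± 0.203 (SD, n = 3). The fitted log2 fold change was -6.78 (standard error 0.51).
Plau (chromosome 14, 20886728 to 20893453, plus strand) had 105, 50.7 and 64.1 CPM in siControl against 1.00, 0.403 and 0.943 CPM in siAATF. Replicate 1 was the highest for Plau in siControl and the lowest for Plat, so the activators did not share an order of libraries there. The Plau means were 73.4 ± 28.4 and 0.782 ± 0.329 CPM (SD, n = 3 each), and the fitted log2 fold change was -6.41 (standard error 0.50).
Plaur, the receptor of urokinase on leukocytes and other migrating cells (chromosome 7, 24161909 to 24175392, plus strand), had 22.5, 60.4 and 59.7 CPM in siControl. Its siAATF libraries held 0.518, 0.605 and 0.943 CPM, from 15, 3 and 17 counts. Every siControl library was above every siAATF library, by a log2 fold change of -6.05 (standard error 0.54).

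**Figure D1:**
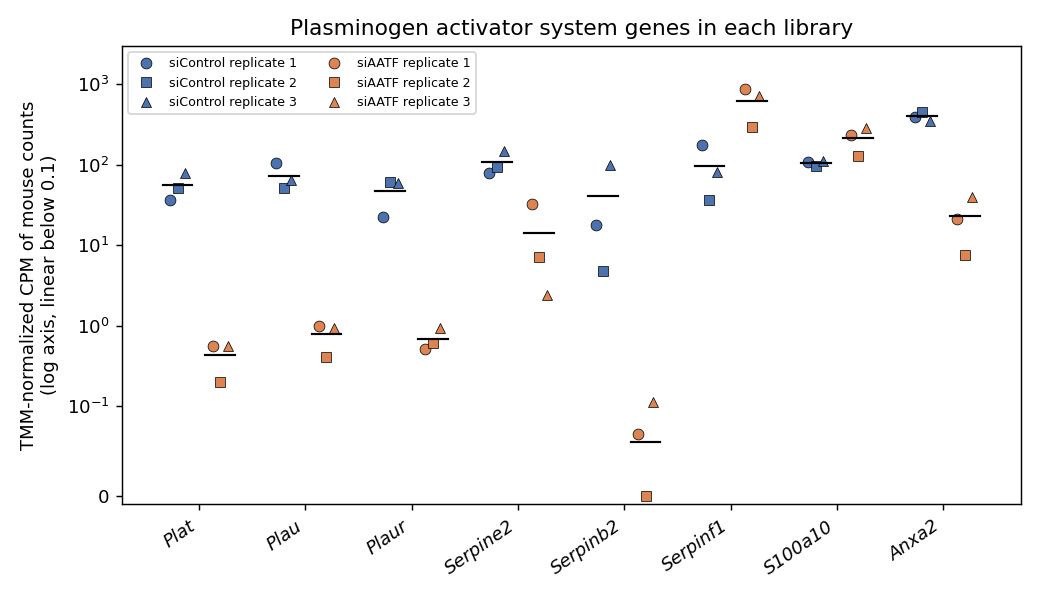
TMM-normalized CPM of mouse counts (log axis, linear below 0.1) of the 8 genes, with 1 point per library, replicates 1 to 3 by symbol and the group mean as a bar. Plat, Plau, Plaur and Serpinb2 lie at or below 1.00 CPM in the siAATF libraries, while Serpinf1 and S100a10 are the genes with higher siAATF points.

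The inhibitors were lower as well, but to unlike extents and with wide spread between libraries. Serpinb2, plasminogen activator inhibitor type 2, is known from activated macrophages and acts mainly on urokinase (chromosome 1, 107439153 to 107453328, plus strand). It had 17.7, 4.83 and 99.3 CPM in siControl, from 22, 2 and 178 counts, and only 2, 0 and 2 counts in siAATF, where the 0 allows up to 0.605 CPM. The siControl libraries differed among themselves more, relative to their mean, for Serpinb2 than for the other members. With counts summed over each group and scaled by the TMM-adjusted totals, Serpinb2 was 760 times higher in siControl, with an exact 95% interval from 292 to 2817 for counting error alone. Its fitted log2 fold change was -8.93 (standard error 1.06), and -7.14 without siControl replicate 3.
Serpine2, protease nexin-1, inhibits thrombin, urokinase and tissue-type plasminogen activator (chromosome 1, 79771914 to 79836413, minus strand). Its level was 78.7, 94.2 and 150 CPM in siControl and 32.6, 7.06 and 2.39 CPM in siAATF. The groups did not overlap, yet siAATF replicate 1 alone held 944 of the 1022 siAATF counts. The log2 fold change of -2.93 (standard error 0.75) became -4.55 when that library was left out.

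Serpinf1 was the member with the clearest higher level in the libraries labelled siAATF. It encodes pigment epithelium-derived factor, a secreted serpin that inhibits angiogenesis and has no protease-inhibiting activity (chromosome 11, 75300595 to 75313527, minus strand). Its level was 175, 36.2 and 81.4 CPM in siControl against 878, 296 and 713 CPM in siAATF. All 3 siAATF libraries were higher, with means of 97.6 ± 70.8 and 629 ± 300 CPM (SD, n = 3 each). The log2 fold change was 2.67 (standard error 0.64). It ranged from 2.29 without siControl replicate 2 to 3.37 without siControl replicate 1, and was 0.99 (standard error 0.64) on mouse library size alone.

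S100a10 and Anxa2, the subunits of one complex, moved apart. S100a10 (chromosome 3, 93462387 to 93471950, plus strand), the subunit that binds plasminogen, had 108, 96.6 and 112 CPM in siControl and 235, 128 and 285 CPM in siAATF. Its groups were close, with the lowest siAATF library just above the highest siControl one, and the log2 fold change was 1.03 (standard error 0.43). On mouse library size alone, without TMM factors, this small difference turned to -0.74.
Anxa2 (chromosome 9, 69360902 to 69399077, plus strand), the membrane-binding annexin, had 396, 454 and 354 CPM in siControl and 21.4, 7.66 and 40.1 CPM in siAATF. With means of 401 ± 50.2 and 23.0 ± 16.3 CPM (SD, n = 3 each), its log2 fold change was -4.11 (standard error 0.61), and -4.71 without siAATF replicate 3. By the coordinates in the deposited table, no exon of another gene overlapped the exons of the 8 members.

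In TMM-normalized CPM, 6 of the 8 members were lower and 2 were higher in the libraries labelled siAATF, and in each of them the groups did not overlap. Without TMM factors the same 6 were lower without overlap, but S100a10 was also lower in every library (188 to 220 CPM against 53.6 to 160), and Serpinf1 overlapped (70.4 to 310 against 124 to 598). Lower values were common on that scale, where the median of all tested genes was -1.30 and 7276 were called lower against 747 higher. The share of all genes without overlap was not computed there. With TMM, among all 18018 mouse genes tested, 18.1% did not overlap and were lower and 34.5% did not overlap and were higher. The members' median log2 fold change was -5.08, beside 0.50 for all tested genes. Since the members were picked with these values known, nothing about the system as a whole follows from that difference. In bulk tissue, fewer cells that express a gene and less RNA of that gene per cell cannot be told apart.

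Between genes, levels were compared per kilobase of exon length, again as TMM-normalized CPM of mouse counts. In siControl, Anxa2 was the most abundant member with 277 ± 34.7 CPM per kilobase (SD, n = 3), followed by S100a10 with 132 ± 10.1, and both stood clear of all members below them. Serpinf1 (50.4 ± 36.5) and Serpine2 (48.7 ± 17.0) came next. Then followed Plaur (31.6 ± 14.4), Plau (31.3 ± 12.1), Plat (21.9 ± 8.30) and Serpinb2 (19.7 ± 24.9). From Serpinf1 down, the range of each member overlapped that of the next, so their order by mean is not distinguished from the spread between libraries. Within libraries, Serpine2 was above Plaur in all 3.
In siAATF the order began with Serpinf1 at 325 ± 155 CPM per kilobase and S100a10 at 269 ± 100, whose ranges overlapped. Anxa2 (15.9 ± 11.2) and Serpine2 (6.34 ± 7.35) followed at a distance. The receptor and activators came last before Serpinb2, with 0.457 ± 0.149 for Plaur, 0.334 ± 0.141 for Plau and 0.173 ± 0.0804 for Plat. Plau was above Plat in all 3 siAATF libraries, and Plaur above Plau in 2 of them.

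Ratios of 2 genes within a library do not depend on how libraries are scaled. Per base of gene length, S100a10 counts were 0.384 to 0.571 times those of Anxa2 in siControl and 12.8 to 30.1 times in siAATF. By these counts the smaller subunit was the scarcer RNA in every siControl library and the more abundant one in every siAATF library. In siControl these ratios rest on 135, 40 and 201 S100a10 and 493, 188 and 635 Anxa2 counts in replicates 1 to 3. Whether human reads were counted there as mouse was not tested. Plasminogen RNA (Plg) stood at 1.38 to 2.73 times Plau in siControl and at 2713 to 3818 times in siAATF. The Plat to Plau ratio (0.326 to 1.13 against 0.464 to 0.546) and the Plau to Plaur ratio (0.540 to 3.01 against 0.429 to 1.24) did overlap. In siAATF replicate 2 these ratios rest on 1 Plat, 2 Plau and 3 Plaur counts. The siAATF replicates 1 and 3 also lay within the siControl range for both ratios. Whether the depth hides a change in the proportions was not tested.

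**Figure D2:**
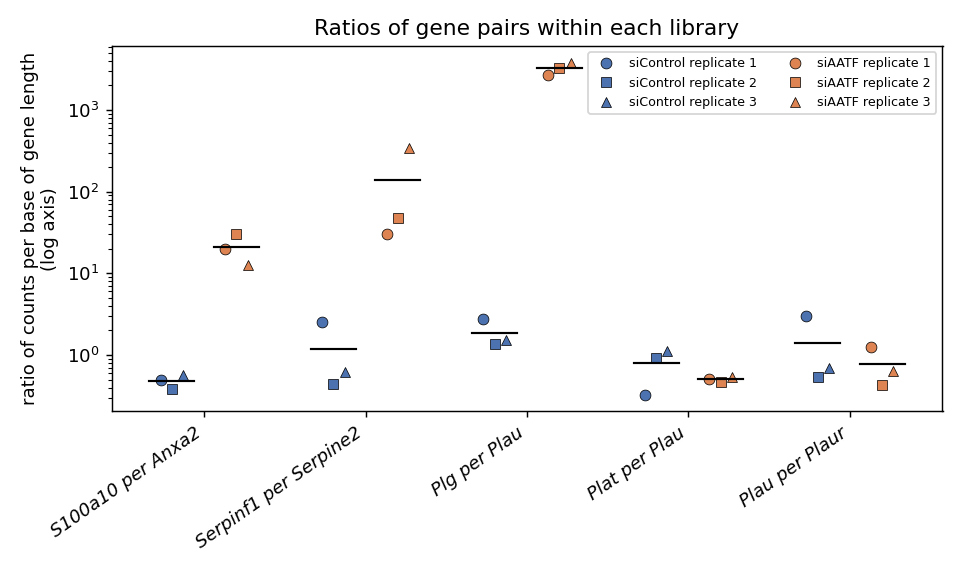
Ratio of the counts per base of gene length of 2 genes in the same library (log axis), with 1 point per library and the group mean as a bar. The S100a10 to Anxa2, Serpinf1 to Serpine2 and Plg to Plau ratios separate the groups, and the Plat to Plau and Plau to Plaur ratios overlap.

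Counted against human and mouse genes together, the direction held for some members only. In CPM of that joint total, Plau was 3.59, 0.767 and 2.13 in siControl and 0.675, 0.165 and 0.481 in siAATF. Plat (0.767 to 2.59 against 0.0827 to 0.372) and Plaur (0.767 to 1.98 against 0.248 to 0.481) were also lower without overlap. The nearest libraries of the groups were close, with 21 and 29 counts for Plau, 21 and 16 for Plat and 28 and 17 for Plaur, and their exact 95% counting intervals overlapped for each gene. Fitted on this scale, the log2 fold changes were -2.21 (standard error 0.79) for Plau, -2.53 (0.85) for Plat and -1.72 (0.84) for Plaur. Serpinb2 ranged from 0.0731 to 3.29 in siControl and from 0 to 0.0565 in siAATF, with 202 against 4 counts in all and a log2 fold change of -4.88 (standard error 1.07). The 0 in siAATF replicate 2 allows up to 0.248 CPM of the joint total, above the 2 counts of siControl replicate 2, so that a lack of overlap between single libraries is not established for Serpinb2.
Anxa2, by contrast, ranged from 6.87 to 13.5 CPM of the joint total in siControl and from 3.14 to 20.4 in siAATF, and Serpine2 had 1.42 to 4.98 against 1.22 to 22.0, so both overlapped. Fitted on this scale, their log2 fold changes turned to 0.25 and 1.52. Serpinf1 had a mean of 3.07 ± 2.73 CPM of the joint total in siControl and 359 ± 235 in siAATF, and S100a10 had 2.96 ± 1.30 and 119 ± 57.8 (SD, n = 3 each). On this scale the tested mouse genes as a whole had a median of 4.66 (log2), against 0.50 with TMM and -1.30 on mouse library size alone. Relative to those medians, Plau stood at -6.87, -6.91 and -6.84, and Anxa2 at -4.41, -4.61 and -4.58. A change of scale moves all genes by nearly the same amount, so this likeness follows from the method and is no separate result. The scale alone set the sign for Anxa2, Serpine2 and S100a10.

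**Figure D3:**
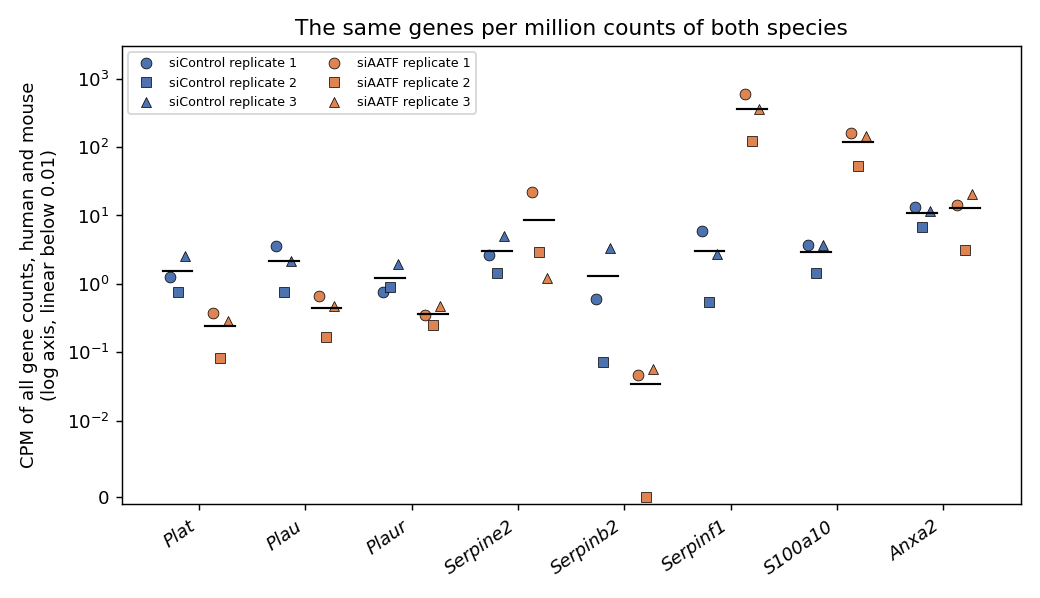
CPM of the joint total of human and mouse counts (log axis, linear below 0.01), of the 8 genes, with 1 point per library and the group mean as a bar. Plat, Plau and Plaur are lower in every siAATF library, the lowest Serpinb2 points rest on 0 to 2 counts, Anxa2 and Serpine2 overlap, and Serpinf1 and S100a10 are higher.

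The other genes of the system were listed by their textbook roles, with earlier results of these libraries known. In the libraries labelled siAATF, 10 of these 27 genes were called higher and 13 lower, at a false discovery rate of 0.05 across the whole mouse table. Of all 18018 genes, 17.6% were called higher and 14.4% lower by the same rule. The list's median log2 fold change was -0.66, beside 0.50 for all genes.
All 3 plasma proenzymes rose. Plg, the precursor of plasmin, had 338, 82.1 and 116 CPM in siControl and 3196, 1564 and 4238 CPM in siAATF (log2 fold change 4.06, standard error 0.77, adjusted p = 0.00161 with edgeR). Klkb1, plasma prekallikrein, had 14.5, 0 and 6.69 CPM against 495, 494 and 380 CPM (log2 fold change 5.81, adjusted p = 0.000102 with edgeR), and F12, coagulation factor XII, rose by 3.18 on the log2 scale (adjusted p = 0.00130 with edgeR). The fibrinogen chains Fga, Fgb and Fgg, the substrate of plasmin in clots, rose by 2.77, 3.12 and 2.83, and the largest fibrinogen values were those of siAATF replicate 3. Without siControl replicate 1, Plg was at 4.90, Klkb1 at 6.60 and F12 at 3.96, and without siAATF replicate 3, Fgg was at 1.78.

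The inhibitors outside the members split. Serpini1, neuroserpin, an inhibitor of tissue-type plasminogen activator, fell to 0.438 ± 0.236 CPM from 12.2 ± 4.38 (SD, n = 3 each, adjusted p = 0.000207 with edgeR). Its log2 fold change of -4.76 was -5.38 without siAATF replicate 1. A2m, alpha-2-macroglobulin, was also lower (-2.89, adjusted p = 0.0281). In contrast, the liver-made antiplasmin Serpinf2 rose from 179 ± 59.6 to 1767 ± 349 CPM (SD, n = 3 each, adjusted p = 0.000927 with edgeR) and Cpb2, a carboxypeptidase that protects fibrin, had a log2 fold change of 2.17 (adjusted p = 0.0301). Serpina5, protein C inhibitor, was at 0 counts in every siControl library and at 11, 5 and 5 counts in siAATF, and was not called (adjusted p = 0.233 with edgeR).

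Among receptors, cofactors and clearance proteins, Vtn and Hrg were higher and Mrc2, Plgrkt and Eno1 lower, while Lrp1 and Igf2r did not pass. Vitronectin (Vtn), an adhesive plasma protein that also binds the urokinase receptor, had a log2 fold change of 3.96 (adjusted p = 0.00358) and histidine-rich glycoprotein (Hrg) one of 4.21 (adjusted p = 0.00156). Without siControl replicate 1 they were at 4.84 and 5.21, and without siAATF replicate 3 Hrg was at 3.55. Mrc2, a collagen receptor that associates with the urokinase receptor, fell from 60.3 ± 17.6 to 2.43 ± 1.10 CPM (SD, n = 3 each, adjusted p = 3.91e-05 with edgeR). Smaller differences were those of the plasminogen receptor Plgrkt (-1.66, adjusted p = 0.0173) and of enolase Eno1 (-1.45, adjusted p = 0.0398), a gene with a near-identical copy whose counts are therefore uncertain. Lrp1, the endocytic receptor that clears activators bound to their inhibitors, ranged from 390 to 430 CPM in siControl and from 402 to 849 CPM in siAATF (adjusted p = 0.398 with edgeR).
Of the 5 integrin genes, whose products associate with the urokinase receptor or its ligands, 4 were lower. The leukocyte integrin subunits Itgam (-5.69, adjusted p = 0.000126) and Itgb2 (-5.08, adjusted p = 0.000132) had the largest differences, followed by Itgb3 (-3.19) and Itgb1 (-1.55). Without siAATF replicate 3, Itgam was at -7.22 and Itgb2 at -6.22. Itgav, at -0.66, was not called (adjusted p = 0.175 with edgeR). The 3 metalloproteinases that plasmin can activate directly or indirectly, Mmp3 (-5.46), Mmp9 (-4.45) and Mmp13 (-5.14), were all lower, with 0 counts each in siAATF replicate 2. Mmp3 was at -7.83 without siAATF replicate 1 and -4.85 without siAATF replicate 3, and Mmp9 at -5.05 without siControl replicate 1 and -5.88 without siAATF replicate 3.
Scaled by the counts of both species, 17 of the 27 genes were called higher and 2 lower. Of all 18018 genes, 15711 were called higher and 119 lower on this scale. On that scale Serpini1 (-0.51), Mrc2 (-0.28), Itgb2 (-0.84), Mmp3 (-1.23), Mmp9 (-0.13) and Mmp13 (-0.93) were not called, A2m (1.24) and Itgb3 (1.27) turned and were not called, and Plgrkt (2.52), Eno1 (2.93) and Itgb1 (2.74) were called higher. Other calls were lost when a library was left out. Without siControl replicate 2 or replicate 3, 6 of the 27 genes were called higher, and Fga, Fgb, Fgg and Cpb2 were not, while their log2 fold changes stayed near the full values (2.62, 2.96, 2.66 and 1.97 without replicate 2) with larger standard errors. Without siAATF replicate 3 the values themselves were smaller, and Fga (1.72), Fgb (1.60) and Cpb2 (1.06) were not called. On mouse library size alone, 6 genes were called higher, again without these 4, and 15 lower. Those higher were Plg (2.34), Klkb1 (4.04), F12 (1.47), Serpinf2 (1.52), Vtn (2.19) and Hrg (2.47). Without TMM factors the CPM of F12 and Hrg overlapped between the groups. Of all genes tested, 747 were called higher and 7276 lower on this scale. A2m was not called without siControl replicate 2 (-3.07), siControl replicate 3 (-2.02) or siAATF replicate 2 (-2.47), and was at -5.08 without siAATF replicate 3. Plgrkt (-1.40) and Itgb1 (-1.54) were not called without siControl replicate 3, nor Plgrkt (-2.06) after thinning every library to the smallest mouse total, and Eno1 (-1.08 to -1.51) when any library but siAATF replicate 1 was left out.

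**Figure D4:**
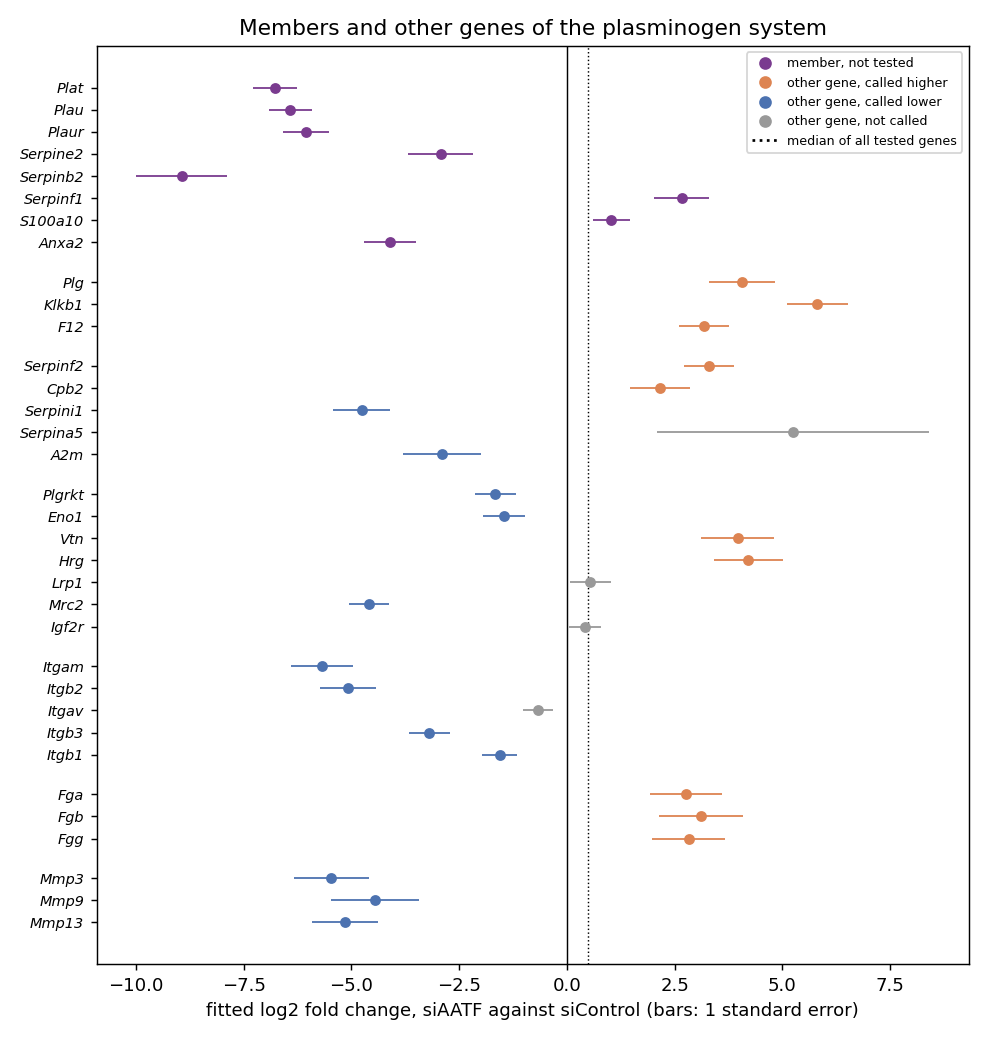
Fitted log2 fold change, siAATF against siControl, with 1 standard error, for the 8 members and the other genes of the system reported by name, grouped by role. Plasma proenzymes and fibrinogen lie to the right of 0, integrin subunits and metalloproteinases to the left, and the dotted line marks the median of all tested genes at 0.50.

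Markers of several cell types moved with the groups. The summed CPM of 8 hepatocyte markers was 1969 to 5766 in siControl and 32837 to 84022 in siAATF, and all 8 were called higher. The 8 fibroblast and stellate cell markers summed to between 8362 and 12439 CPM in siControl against 344 to 494 CPM in the other group, with 7 of 8 called lower. For 8 macrophage markers the sums were 1394 to 3933 and 102 to 180 CPM (7 called lower), and for 8 endothelial markers 380 to 582 and 50.8 to 174 CPM (6 called lower). Neutrophil markers ranged from 94.7 to 1921 CPM in siControl and from 2.22 to 140 CPM in siAATF, so that the groups overlapped, and 5 of 6 were called lower. The mesothelial and cholangiocyte markers, at 4.83 to 41.8 and 5.59 to 28.5 CPM, were low in both, with 2 of 6 called lower. No marker of any list was at 0 in all libraries of a group, though 4 of the 6 neutrophil markers were at 0 in some library labelled siAATF, and of the 6 mesothelial and cholangiocyte markers 4 were at 0 in some siControl library and 1 in some siAATF library. The part of these markers in the members' differences was not tested, and the human share of the library cannot be told apart from the group.

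**Figure D5:**
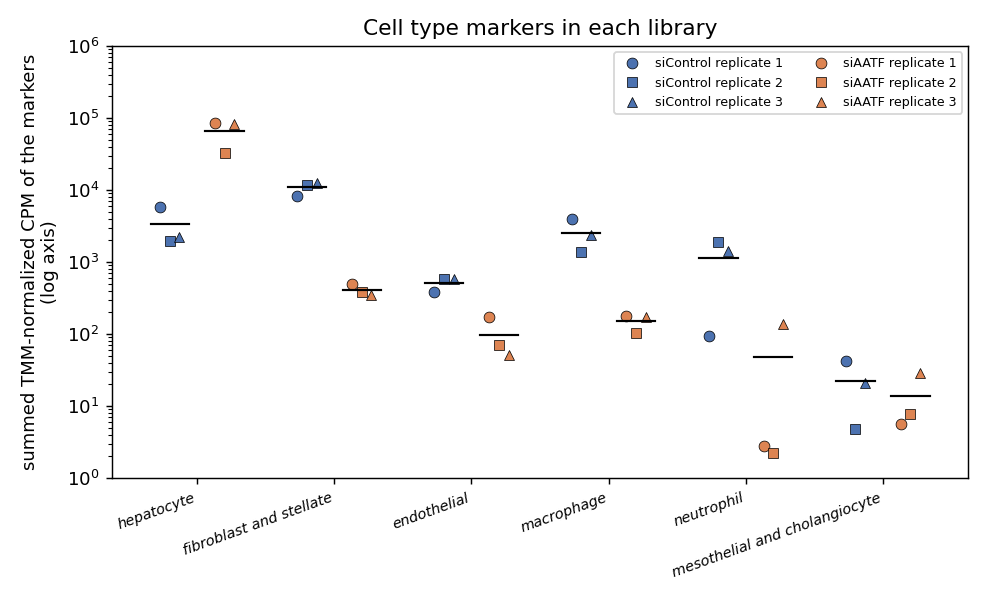
Summed TMM-normalized CPM of the markers of each cell type (log axis), with 1 point per library and the group mean as a bar. Hepatocyte markers are higher in every siAATF library, fibroblast, endothelial and macrophage markers are lower, and the last 2 lists overlap.

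The profile most like the mean of the members' standardized levels over the 6 libraries was that of Grk5 (Pearson's r = 0.997), followed by Atp1b3 (0.996), Cybc1 (0.995), Rnf19b (0.994) and Zfp36l2 (0.994), among 9461 genes with a mean of at least 50 counts. These values describe 6 libraries that share the same 2 groups. The mean profile follows the lower members and does not represent Serpinf1 and S100a10, which were higher with TMM.

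Sequences upstream of the members were read from GRCm39 to show what the promoters of genes with unlike levels contain. In the 250 bases before the start of the canonical transcript in gencode vM39, which can lie outside the deposited gene, the AP-1 motif TGANTCA, searched on both strands, was present in 3 of the 8 members, Plaur, Serpinb2 and Anxa2, and in 6.18% of 21757 protein-coding promoters of the same length. The GC box GGGCGG was found in 4 of 8 members and in 36.3% of all promoters, and TATAAA in 1 of 8 and in 11.9%. Overlapping matches were counted. The 3 members with an AP-1 match are shown with S100a10, the partner of Anxa2, which held none of these letters. Capitals mark the matches, and each sequence ends at the base before the start of transcription, all on the plus strand.
Plaur, chr7:24161625-24161874: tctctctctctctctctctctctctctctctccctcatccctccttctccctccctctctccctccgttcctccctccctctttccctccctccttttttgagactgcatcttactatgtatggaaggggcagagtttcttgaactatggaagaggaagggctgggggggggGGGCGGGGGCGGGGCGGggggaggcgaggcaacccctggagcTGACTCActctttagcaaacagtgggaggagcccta
Serpinb2, chr1:107438903-107439152: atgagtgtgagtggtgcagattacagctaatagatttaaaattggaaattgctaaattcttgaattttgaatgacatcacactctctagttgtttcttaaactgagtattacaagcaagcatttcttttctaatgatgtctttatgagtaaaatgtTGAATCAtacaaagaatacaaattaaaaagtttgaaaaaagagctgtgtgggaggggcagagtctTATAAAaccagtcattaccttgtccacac
Anxa2, chr9:69360652-69360901: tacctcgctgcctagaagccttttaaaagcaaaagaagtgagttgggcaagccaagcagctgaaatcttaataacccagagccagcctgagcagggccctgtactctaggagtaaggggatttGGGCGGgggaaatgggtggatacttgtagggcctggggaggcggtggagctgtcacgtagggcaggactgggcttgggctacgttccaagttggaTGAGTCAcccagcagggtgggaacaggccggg
S100a10, chr3:93461963-93462212: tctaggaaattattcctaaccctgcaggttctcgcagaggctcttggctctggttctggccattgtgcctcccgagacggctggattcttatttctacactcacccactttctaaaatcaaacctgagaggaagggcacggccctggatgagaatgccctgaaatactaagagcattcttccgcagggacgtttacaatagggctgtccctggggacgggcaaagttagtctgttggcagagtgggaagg
The AP-1 letters began 36 bases before the start in Plaur, 94 in Serpinb2 and 32 in Anxa2. Serpinb2 also held TATAAA, beginning 29 bases before the start, and Plaur had 3 GC boxes that overlapped or adjoined each other. A match describes these letters only and is not evidence that a factor bound there. Of the 27 other genes, 5 held the AP-1 motif, namely Hrg, Fgb, Mmp3, Mmp9 and Mmp13, which included genes that rose and genes that fell.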

How the data were processed

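Libraries had been made with a SMART-Seq kit from total RNA. The authors trimmed reads with Cutadapt, aligned them with STAR 2.7.11 to joined human (GRCh38) and mouse (GRCm39) genomes without multi-mapped reads, and counted genes with featureCounts 2.0.1. Whether strand was used is not given in the sources used here. The deposited values are raw counts per gene, not normalized. All 6 count columns of the mouse table were assigned by library name, and the human table served only for library totals, with 1 gene broken over 3 lines left out. Mouse identifiers were named from gencode vM39 (56323 of 56884 found), on the same build.

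Counts were tested with edgeR 4.0.16 (R 4.3.3) by quasi-likelihood, with TMM normalization, a total of at least 10 counts, the group as the only term, and Benjamini-Hochberg adjustment over 18018 genes. The factors were 1.77 to 1.97 in siControl and 0.419 to 0.681 in siAATF. CPM was computed here from the counts. The fit was also run on simulated data with 200 genes changed, as many up as down. That run held no general shift between the groups, so it does not test the fit under one. The alternatives included DESeq2 1.42.0, other scalings and filters, a replicate block, thinning and each library left out. The members and gene lists were chosen with earlier results of these data known. Named genes were the 8 members, 27 other genes of the system fixed by role (1 is counted but not reported here), Aatf, and the 5 genes most like the members by Pearson's r of log2(CPM + 1). Human orthologs were not analysed here.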

Additional observations from a re-analysis of the deposited data

How the results depend on the processing

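Under the alternatives, 92 of the members' log2 fold changes moved by less than the spread between replicates, 21 moved further with the same sign, and 3 changed sign, namely Serpine2 (1.52) and Anxa2 (0.25) scaled by all gene counts of both species, and S100a10 (-0.74) scaled by mouse library size alone. Among the other genes, scaling by all gene counts reversed A2m (1.24), Plgrkt (2.52), Eno1 (2.93), Itgav (3.55), Itgb3 (1.27) and Itgb1 (2.74), and mouse library size alone reversed Lrp1 (-1.31), Igf2r (-1.35) and Aatf (-0.92). Thinning to 213022 counts per library reversed Lrp1 (-0.12) and Igf2r (-0.47). With at least 10 counts in every library, Plat, Plau, Plaur and Serpinb2 could not be fitted.

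Of all mouse genes, 5762 were called, 15830 with all gene counts as library size, 1745 of 3552 with at least 10 counts in every library, 3099 of 9656 after thinning, and 3333 to 6088 with each library left out, the lowest without siControl replicate 3. The share of calls that were higher was 55.0% with TMM, 9.31% on mouse library size, 99.2% with all gene counts and 41.9% after thinning. Pathway genes called higher were 6 on mouse library size and 17 with all gene counts, beside 747 and 15711 of all mouse genes. With each library left out they were 6 to 10. Those called lower were 2 with all gene counts (beside 119 of all mouse genes), 3 of the 14 left by the filter on every library, and 9 to 13 with each library left out. DESeq2, RLE, filterByExpr and no filter gave 10 higher and 13 lower, as the main fit did.

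Replicates with the same number share only that number. The correlation of their deviations from the group means was 0.149, 0.217 and -0.0267 for numbers 1, 2 and 3, and siControl replicate 1 correlated more with siAATF replicate 3 (0.176) than with its own number. With the replicate block, 6766 genes were called, with 10 pathway genes higher and 13 lower. The alternatives for human genes were not run, since no table used here names them. Depth limits CPM of mouse counts most in siControl replicate 2, and CPM of both species' counts most in siAATF replicate 2.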
